A study of Mus musculus with 2 samples.

Results

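Mesothelial epicardial cells, the flat epithelium that covers the outside of the heart, were selected in 2 single-cell libraries of pressure-overloaded mouse left ventricle. A barcode was taken as one of them when it held at least 2 UMIs (unique molecular identifiers, counted transcripts) over Msln, Upk3b, Lrrn4, Upk1b, Muc16 and Wt1 from 2 or more of these 6 genes. It could hold at most 1 UMI over Ptprc, Pecam1 and Cdh5, genes of leukocytes and endothelium, and the cardiomyocyte genes Ttn, Myh6, Ryr2 and Tnnt2 had to make up under 2.5% of its nuclear-encoded UMIs. This rule found 360 cells of 26178 barcodes, of which 235 of 10118 were in the p53 knockout library and 125 of 16060 in the wild-type library.

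Both libraries came from mice that had undergone transverse aortic constriction (TAC), a narrowing of the aortic arch that loads the left ventricle, and were collected 6 weeks after surgery. The knockout group was p53 knockout mice with TAC and the comparison group was wild-type mice with TAC, and no unoperated heart was analysed here. Each library pooled 3 hearts of its group, and the labels do not state age, sex, strain, the p53 allele or whether the deletion was confined to a tissue. The labels name cardiomyocytes as the cell type and total RNA as the molecule, whereas the counts are per barcode and hold many cell classes.

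The epicardium is a mesothelium: a single sheet of polarised cells with keratins, apical mucins and uroplakins, a basement membrane beneath it and a lubricating glycocalyx towards the pericardial cavity. It makes retinoic acid and growth factors that act on the muscle below. In the embryo some of its cells pass through an epithelial-mesenchymal transition and give rise to fibroblasts and mural cells, and in the injured adult heart parts of the embryonic gene programme return.

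Because each group is 1 library, no difference between the groups could be tested, and the counts below describe these 2 libraries. Levels are CPM, summed UMIs of a gene in the mesothelial cells of a library per 1000000 of their nuclear-encoded UMIs. Intervals are 95% and cover counting error only. The mesothelial cells held 823139 nuclear-encoded UMIs in the p53 knockout library and 176610 in the wild-type library, with medians of 2119 and 1115 UMIs per cell. Trp53 itself, the gene of p53, stood at 58.3 CPM (48 UMIs) in the library labelled p53 knockout and 39.6 CPM (7 UMIs) in the library labelled wild-type. The log2 ratio was 0.47 (-0.60 to 1.95), and 0.12 (-0.20 to 0.45) in fibroblasts. Neither point value was lower where the label says knockout, but both intervals include lower levels. A 3′ tag that lies outside a deleted part would not show a deletion, and the deleted part is not given in the sources used here. Xist, the RNA of the inactive X chromosome, had 514 UMIs in the library labelled p53 knockout and 0 in the library labelled wild-type, whereas the Y-linked Ddx3y had 2 and 26 UMIs and Eif2s3y 0 and 23. Sex and genotype therefore cannot be told apart in any difference between the libraries. The libraries shared 105 cell barcodes, 3 of which were wild-type mesothelial cells and 0 of which were knockout mesothelial cells.

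Other cell types' genes were present in the selected cells at unequal levels. A list of 11 fibroblast markers summed to 11857 CPM in knockout mesothelial cells and 6534 CPM in wild-type ones, against 22416 and 20463 CPM in the fibroblasts of the same libraries. A list of 10 cardiomyocyte markers summed to 1946 CPM in knockout and 9122 CPM in wild-type mesothelial cells, and to 3068 and 8171 CPM in knockout and wild-type fibroblasts. All 10 cardiomyocyte genes were at least 2-fold lower in the knockout library, where 11.8% of all genes counted in the mesothelial cells were. The 4 haemoglobin genes and Alas2 and Slc4a1 summed to 1696 and 606 CPM in knockout and wild-type mesothelial cells. The 10 macrophage markers summed to 363 and 447 CPM, the 5 B cell markers to 19.4 and 0 CPM, and the 5 neutrophil markers to 19.4 and 0 CPM. The 6 T and NK cell markers were all at 0 in knockout mesothelial cells and summed to 11.3 CPM in wild-type ones. The 10 vascular endothelial markers summed to 1559 and 2242 CPM, the 7 endocardial markers to 1221 and 985 CPM, the 7 lymphatic markers to 471 and 317 CPM and the 7 pericyte markers to 154 and 379 CPM in knockout and wild-type mesothelial cells. The 6 smooth muscle markers summed to 708 and 39.6 CPM, the 5 adipocyte markers to 63.2 and 5.66 CPM and the 5 Schwann cell markers to 17.01 and 5.66 CPM. The part of these transcripts in the results was not tested.

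The cells made up 2.32% (2.04 to 2.64, exact binomial interval) of barcodes in the library labelled p53 knockout and 0.778% (0.648 to 0.927) in the library labelled wild-type. The knockout library was deeper, with a median of 1540 UMIs over all barcodes against 940 in the wild-type library. With each barcode thinned to 500 UMIs, the share was 1.502% (152 cells) and 0.573% (92 cells), so it remained higher in the knockout library. Before thinning, the log2 ratio of the shares was 1.58 (1.26 to 1.90). Rule-gene transcripts were also more abundant outside the mesothelial cells of the knockout library. Over all other barcodes the 6 rule genes summed to 198 CPM there and 43.4 CPM in the wild-type library. Of all barcodes, 15.6% and 4.15% held at least 1 rule UMI. Thinning does not remove such transcripts, and their part in the shares was not tested. Cells with at most 2 UMIs over 6 fibroblast genes numbered 62 in the knockout library and 69 in the wild-type library. With only these the log2 ratio of the shares was 0.51 (-0.01 to 1.03). This limit does not scale with depth: the cells that met it held 65276 of the 823139 knockout UMIs and 70970 of the 176610 wild-type UMIs, so values given below for them rest on shallow cells and were not separated from depth. At the edge of the rule, 35 knockout and 15 wild-type cells had exactly 2 rule UMIs. Just outside it, 107 knockout and 48 wild-type barcodes within the other limits had 2 or more rule UMIs from 1 gene, and 410 and 255 had a single rule UMI. The endothelial and leukocyte limit alone kept out 84 knockout and 19 wild-type barcodes. All 6 rule genes were seen together in 45 knockout cells and 7 wild-type cells.

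The rule genes, which chose the cells and are given as a description, were abundant in both libraries. Msln (mesothelin, an apical surface protein, chr17:25748613-25754378, minus strand, mm10) stood at 1594 CPM in knockout cells and 1098 CPM in wild-type cells. Upk3b, a uroplakin of mesothelium, had 1297 and 1478 CPM, and Upk1b, a tetraspanin partner of uroplakins, 1081 and 781 CPM in knockout and wild-type cells. Wt1, the zinc-finger transcription factor of the epicardium, was at 559 and 572 CPM, and Lrrn4, a leucine-rich repeat membrane protein, at 473 and 413 CPM. Muc16, a membrane mucin of the apical surface (chr9:18495455-18674530, minus strand), was the rule gene with the widest ratio, at 768 CPM in 132 knockout cells and 1852 CPM in 90 wild-type cells. Its log2 ratio was -1.27 (-1.46 to -1.07), and -0.84 in the cells with at most 2 fibroblast UMIs.

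**Figure D1:**
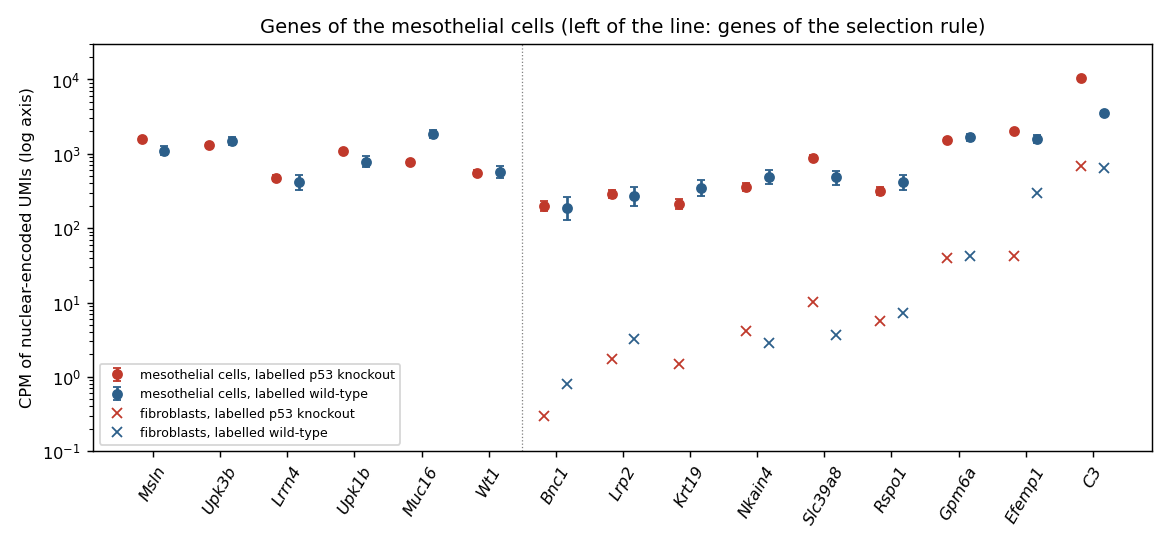
Levels (CPM, log axis) of the 6 rule genes, left of the dotted line, and of 9 other mesothelial genes in mesothelial cells (circles, with 95% Poisson intervals) and fibroblasts (crosses), the library labelled p53 knockout in red left of the library labelled wild-type in blue. Fibroblasts were chosen to hold 0 UMIs of the rule genes, so no cross is drawn there, nor for any other level of 0; C3, at 10552 and 3511 CPM, is the highest point in each library.

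Mesothelial genes that the rule did not use were present in both libraries. Of a list of 30 such genes, 26 had at least 20 UMIs over both libraries, the minimum for a gene to be counted here. Of these 26, 25 were at least 2-fold above fibroblasts in each library and 25 at least 2-fold above all other barcodes, where 8.64% and 8.32% of all 8481 genes counted were. None was 2-fold lower in each library than fibroblasts or than other barcodes, beside 3.73% and 4.21% of all genes. The cells were picked by co-expressed genes, so this describes the selection and is no test. Bnc1, a zinc-finger transcription factor of epithelia and epicardium, was at 200.5 CPM in knockout and 187 CPM in wild-type mesothelial cells, against 0.293 and 0.811 CPM in fibroblasts of those libraries. Lrp2, the endocytic receptor megalin, was at 287 and 272 CPM, against 1.76 and 3.24 CPM in fibroblasts. Nkain4, a membrane protein that interacts with the sodium pump, had 358 and 487 CPM, and Rspo1, a secreted enhancer of Wnt signalling, 313 and 413 CPM. Gpm6a, a membrane glycoprotein, was at 1543 and 1659 CPM and Efemp1, a fibulin, at 1996 and 1597 CPM in knockout and wild-type mesothelial cells. The genes that missed 2-fold were Sulf1 against knockout fibroblasts (1014 against 879 CPM) and Clu against other wild-type barcodes (187 against 135 CPM).

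Between the libraries this list had a median log2 ratio of -0.03, with 13 genes higher and 13 lower in the knockout-labelled library. At 2-fold, 6 of 26 were higher and 4 lower, beside 13.4% (1134) and 11.8% (998) of all genes counted, whose median was -0.06. Median-of-ratios scaling, over 518 genes with at least 50 UMIs in each library, adds 0.31 to every log2 ratio: the split over all genes becomes 1778 and 538, and the median of the mesothelial list 0.27. In the cells with at most 2 fibroblast UMIs that median was -0.64. The simple keratins differed in direction. Krt7 was at 164 CPM in knockout and 39.6 CPM in wild-type cells and Krt8 at 211 and 102 CPM, whereas Krt19 was at 210 and 351 CPM. Krt14, a keratin of stratified epithelium, had 61 UMIs in 19 knockout cells and 2 UMIs in wild-type cells, a log2 ratio of 2.40 (0.80 to 5.79). Clu, the secreted chaperone clusterin, was 926 CPM in knockout and 187 CPM in wild-type cells (log2 ratio 2.29, 1.81 to 2.86). Lower in the knockout library were Rarres2, which encodes the chemoattractant chemerin (531 and 1738 CPM, log2 ratio -1.71, -1.93 to -1.50), and Sulf1, a heparan sulfatase (1014 and 2780 CPM, log2 ratio -1.46, -1.62 to -1.29). Dpp4, a cell-surface peptidase, was 418 and 968 CPM, and Igfbp6, a binding protein for insulin-like growth factors, 572 and 1285 CPM. Slc26a3, a chloride-bicarbonate exchanger of epithelia, was at 103 CPM in 25 knockout cells and 459 CPM in 34 wild-type cells, with 0.88 and 1.22 CPM in knockout and wild-type fibroblasts. Its log2 ratio was -2.15 (-2.61 to -1.69), and -0.99 (-2.35 to 0.17) in the cells with at most 2 fibroblast UMIs.

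Complement and innate immune genes were the list with the highest median ratio among those with at least 6 genes counted. Of its 25 genes 22 were counted; 21 were higher in the knockout-labelled library, 17 of them at least 2-fold, and none was 2-fold lower, beside 13.4% and 11.8% of all genes. In fibroblasts 11 of 23 were at least 2-fold higher and 1 lower, beside 6.73% and 9.5% of the 13226 genes counted there. The median log2 ratio was 1.99, or 1.48 with genes absent from the wild-type cells set at 3 counts, and 0.93 in fibroblasts. Over all other barcodes it was 1.76, with 17 of 25 genes at least 2-fold higher and none 2-fold lower. The difference between the libraries in this list was thus not particular to the mesothelial cells. C3, the central component of complement and also a gene of the mesothelial list (chr17:57203970-57228136, minus strand), had 8686 UMIs in 205 knockout cells, or 10552 CPM, and 620 UMIs in 84 wild-type cells, or 3511 CPM. The log2 ratio was 1.59 (1.47 to 1.71), whereas fibroblasts stood at 676 CPM in the knockout library and 649 CPM in the wild-type library. In the cells with at most 2 fibroblast UMIs the C3 log2 ratio was 0.63, and the median of the list 0.82. B cells, which should lack C3, had a UMI of it in 17 of 136 knockout cells (12.5%, median depth 1289.5 UMIs) and in 1 of 29 wild-type cells, against 87.2% and 67.2% of knockout and wild-type mesothelial cells.

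Other genes of the cascade are given by their step, chosen after their values were seen where the naming rule does not name them. C1ra and C1s1, the proteases of the first component, were 725 and 963 CPM in knockout cells, and 147 and 215 CPM in wild-type cells. C4b, the fourth component, was 867 CPM in knockout and 108 CPM in wild-type cells (log2 ratio 2.97, 2.36 to 3.75; 1.71, 0.28 to 3.60, in the cells with at most 2 fibroblast UMIs), and C2, its partner in the classical convertase, 484 and 204 CPM in knockout and wild-type cells. Cfb, factor B of the alternative pathway, was 481 CPM in 93 knockout cells and 51.0 CPM in 4 wild-type cells, a log2 ratio of 3.16 (2.30 to 4.38). Inhibitors of complement included genes with narrower ratios. Serping1, the C1 inhibitor, was 656 and 532 CPM in knockout and wild-type cells, and Cd59a, which blocks the terminal complex, 37.7 and 56.6 CPM. Among acute-phase genes Lcn2, an iron-siderophore binding lipocalin, was 130 and 34.0 CPM in knockout and wild-type cells, and Il6 had 76 UMIs in 19 knockout cells and 3 UMIs in 1 wild-type cell (log2 ratio 2.23, 0.84 to 4.75).

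**Figure D2:**
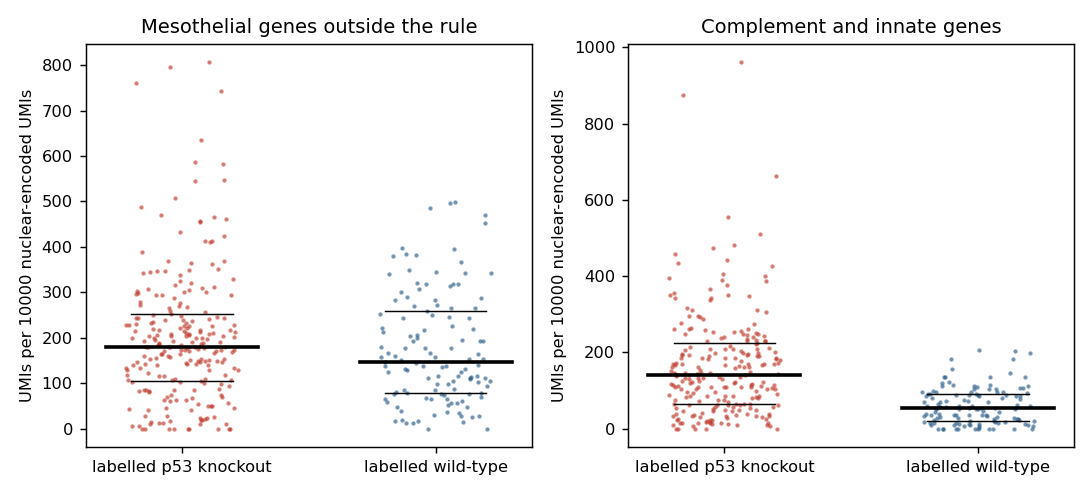
UMIs per 10000 nuclear-encoded UMIs in each mesothelial cell (points), for the mesothelial genes outside the rule (left panel) and the complement and innate genes (right panel), the library labelled p53 knockout left and the library labelled wild-type right, with thick lines at the medians and thin lines at the quartiles. For complement and innate genes the medians were 141 and 54.6, and 67 of 235 knockout cells lay above the highest wild-type cell; for the mesothelial genes the medians were 180 and 147.

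Saa3, an acute-phase serum amyloid A (chr7:46711998-46715700, minus strand), was seen in 61 of 235 knockout mesothelial cells with 579 UMIs, or 703 CPM, and in 0 of 125 wild-type cells, which allows a share of cells with a UMI of up to 2.4% (3 cells; 2.91% by the exact binomial interval). At a median of 1115 UMIs per wild-type cell this limits detection, not expression. Against a floor of 3 counts in the wild-type cells (16.99 CPM) it was at least 41.4-fold higher in the library labelled p53 knockout. Thinned to 500 UMIs per cell, 35 of 235 knockout cells (14.9%) and 0 of 125 wild-type cells had it. Fibroblasts had 10.9 CPM of it in the knockout library and 1.62 CPM in the wild-type library, and 1 of 136 knockout B cells had a UMI. The knockout cells with at most 2 fibroblast UMIs held 21 of its UMIs.

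The 250 bases before the RefSeq transcription start (GRCm38.p6) of Saa3 and C3 are shown because these are the leading acute-phase and complement genes of the cells, chosen after their values were seen. Capitals mark matches to TTGCNNAA, a C/EBP-type motif, searched on both strands.
Saa3 (chr7:46715677-46715926, minus strand): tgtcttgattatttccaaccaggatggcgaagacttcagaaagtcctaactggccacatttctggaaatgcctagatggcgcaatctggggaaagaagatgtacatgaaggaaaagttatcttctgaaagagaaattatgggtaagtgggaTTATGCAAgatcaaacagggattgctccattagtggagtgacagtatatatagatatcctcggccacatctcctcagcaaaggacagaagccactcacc
C3 (chr17:57228137-57228386, minus strand): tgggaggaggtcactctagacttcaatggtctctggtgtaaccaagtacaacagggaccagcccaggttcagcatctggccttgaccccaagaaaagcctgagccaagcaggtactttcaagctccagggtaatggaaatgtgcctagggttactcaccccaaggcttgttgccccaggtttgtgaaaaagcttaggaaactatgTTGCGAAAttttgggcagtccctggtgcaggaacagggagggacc

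The Saa3 match lay 99 to 92 bases before the start on the opposite strand, and the C3 match 45 to 38 bases before it. TTGCNNAA was found in 9.56% of 32851 promoters of the same length. Of 7 further genes searched, Mt2 and Sfrp2 held 1 match each, and Cemip, Muc16, Bnc1, Upk3b and B2m none. A match is a description of the letters only.

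Class I antigen presentation and interferon-response genes were also mostly higher in the knockout-labelled library. Of 17 genes counted from a list of 20, 15 were higher, 10 past 2-fold, and none was 2-fold lower, beside 13.4% and 11.8% of all genes. In fibroblasts 0 of 20 were 2-fold higher and 1 lower, beside 6.73% and 9.5% there. The median was 1.43 on the log2 scale (1.20 with absent genes at 3 counts) in mesothelial cells and 0.04 in fibroblasts. Over all other barcodes it was 0.63. B2m, the light chain of class I molecules, was 2622 CPM in knockout and 679 CPM in wild-type mesothelial cells (log2 ratio 1.94, 1.68 to 2.23), against 697 and 484 CPM in knockout and wild-type fibroblasts. The class I heavy chains H2-K1 and H2-D1 are similar in sequence, and whether reads are shared between them was not tested. They stood at 2449 and 1438 CPM in knockout cells and at 787 and 493 CPM in wild-type cells. With at most 2 fibroblast UMIs the H2-K1 log2 ratio was 0.80, against 1.63 in all mesothelial cells. Ifitm3, an antiviral membrane protein, was 618 and 226 CPM in knockout and wild-type cells. Irf7, a transcription factor of the type I interferon response, had 66 UMIs in 43 knockout cells and 0 in wild-type cells, at least 4.72-fold higher. Cd74, the invariant chain of class II molecules, was 45.0 CPM in knockout and 67.9 CPM in wild-type cells (log2 ratio -0.64, -1.57 to 0.48).

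**Figure D3:**
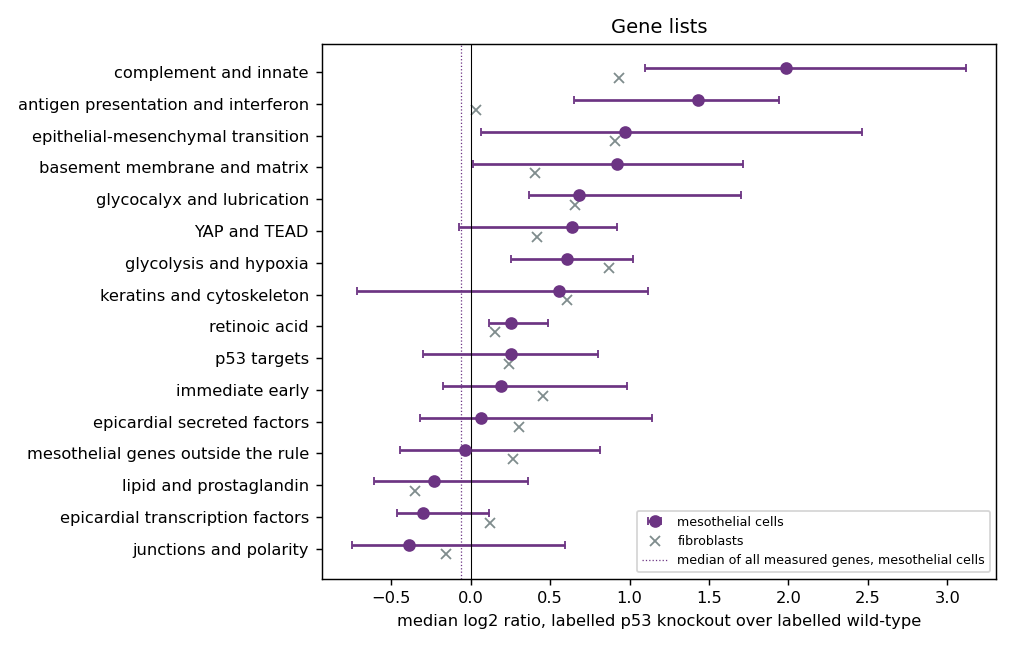
Median log2 ratio of knockout-labelled over wild-type-labelled cells for 16 gene lists with at least 6 genes counted in mesothelial cells (circles, with bars from the lower to the upper quartile of the genes), above the median of the same list in fibroblasts (crosses). Complement and innate genes (1.99 in mesothelial cells, 0.93 in fibroblasts) and antigen presentation and interferon genes (1.43 and 0.04) stand furthest right, and junction genes (-0.39) furthest left.

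Matrix genes were higher on balance, in cells whose fibroblast markers were also higher. Of 31 genes counted, 23 were higher in the knockout-labelled library and 14 at least 2-fold, and 1 was at least 2-fold lower, beside 13.4% and 11.8% of all genes. The median log2 ratio was 0.92 in mesothelial cells, 0.40 in fibroblasts and 0.81 over all other barcodes. It was 0.30 in the mesothelial cells with at most 2 fibroblast UMIs, a limit that itself counts collagen and decorin UMIs. With at least 10 rule UMIs per 10000, which kept 224 knockout and 124 wild-type cells, it was 0.47. Some deep cells held few rule UMIs. The deepest knockout cell, with 30484 UMIs, had 1.02 per 10000 nuclear-encoded UMIs, where the median of knockout cells was 49.3. Sparc, a matricellular protein, was 2018 and 589 CPM in knockout and wild-type cells. Col4a1 and Col4a2, the chains of basement membrane collagen, were 556 and 398 CPM in knockout cells and 119 and 130 CPM in wild-type cells. The interstitial collagen Col3a1 was 2296 and 1212 CPM, and Dcn, the small proteoglycan decorin, 2373 and 1778 CPM in knockout and wild-type cells, below the 4497 and 6180 CPM of Dcn in knockout and wild-type fibroblasts. The laminin chains stood closer: Lamc1 was 171 and 170 CPM and Lamb2 130 and 125 CPM in knockout and wild-type cells. Col6a3, a chain of microfibrillar collagen, was the one that was 2-fold lower, at 31.6 and 79.3 CPM.

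Genes tied to epithelial-mesenchymal transition had a median log2 ratio of 0.97 in mesothelial cells, 0.91 in fibroblasts and 0.97 over all other barcodes. The difference between the libraries was thus not particular to the mesothelial cells. In these cells 10 of 20 counted were at least 2-fold higher and 1 at least 2-fold lower, beside 13.4% and 11.8% of all genes. The median was 0.04 in the mesothelial cells with at most 2 fibroblast UMIs. In several of these genes 1 cell held much of the count. Fn1, fibronectin, had 924 UMIs in 95 knockout cells and 14 UMIs in 7 wild-type cells, but 1 knockout cell held 45.9% of its UMIs. Knockout and wild-type fibroblasts had 779 and 104 CPM of Fn1. Col1a1 had 891 and 19 UMIs in knockout and wild-type cells, 29.4% of the knockout UMIs in 1 cell, and Postn, the matricellular periostin, 181 and 5 UMIs, 39.2% in 1 cell. The transcriptional repressor Zeb1 went the other way, at 197 CPM in 87 knockout cells and 436 CPM in 39 wild-type cells (log2 ratio -1.15, -1.55 to -0.74; -0.36, -1.23 to 0.46, in the cells with at most 2 fibroblast UMIs). Snai1 and Snai2, repressors of cadherins, had 7 and 3 UMIs in knockout cells and 0 in wild-type cells, too few to be counted.

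Transcription factors of the epicardium had a median log2 ratio of -0.30 over 15 genes, with 2 at least 2-fold higher and 1 lower (13.3% and 6.67%, beside 13.4% and 11.8% of all genes), and a median of 0.01 under median-of-ratios scaling. Tbx18, a T-box factor of the epicardial lineage, was 251 and 351 CPM, and Gata6 330 and 334 CPM in knockout and wild-type cells. Meis1, a homeobox cofactor, was the gene at least 2-fold lower, at 210 and 481 CPM in knockout and wild-type cells. Aldh1a2, which makes retinoic acid, was 247 and 238 CPM, while its relative Aldh1a1 was 859 CPM in knockout and 453 CPM in wild-type cells. Among secreted factors Igfbp5 was 2062 and 3420 CPM, Slit3, a guidance ligand, 1227 and 906 CPM, and Sema3d, a semaphorin of the epicardium, 564 and 645 CPM in knockout and wild-type cells; the median of 23 such genes was 0.06. Junction and polarity genes had a median of -0.39 over 23 genes, which ranged from -0.57 to -0.02 over the alternative settings. Of them, 4 were at least 2-fold higher and 4 lower (17.4% each, beside 13.4% and 11.8% of all genes). Cldn15, a pore-forming claudin, was 283 and 459 CPM in knockout and wild-type cells, and Cldn3, a barrier claudin, had 67 UMIs in 35 knockout cells and 2 UMIs in 2 wild-type cells (log2 ratio 2.53, 0.94 to 5.92).

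Genes that p53 is known to switch on had a median log2 ratio of 0.25 over 23 genes in mesothelial cells, with 4 at least 2-fold higher and 1 lower (17.4% and 4.35%, beside 13.4% and 11.8% of all genes). Cdkn1a, the cyclin-dependent kinase inhibitor p21, was 113 CPM in 27 knockout cells and 28.3 CPM in 4 wild-type cells (log2 ratio 1.87, 0.72 to 3.65; 0.56, -1.12 to 2.54, in cells of 500 to 2000 UMIs). Thinned to 500 UMIs per cell, 8 of 235 knockout cells (3.40%) and 4 of 125 wild-type cells (3.20%) had it. Mdm2, the ubiquitin ligase of p53, was 75.3 and 67.9 CPM, and Sesn1, a stress-induced sestrin, 59.5 and 187 CPM in knockout and wild-type cells (log2 ratio -1.66, -2.32 to -0.97). Of 24 cell cycle genes, 5 had enough UMIs to be counted, and none of the 5 was 2-fold apart.

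The 12 genes with the highest ratios included secreted and matrix-binding proteins, and 10 of the 12 had 0 UMIs in wild-type mesothelial cells. Cemip, which degrades hyaluronan (chr7:83932857-84086502, minus strand), had 813 UMIs in 55 knockout cells, or 988 CPM, and 0 UMIs in wild-type cells, at least 58.1-fold higher against the 3-count floor. Knockout and wild-type fibroblasts had 14.97 and 2.43 CPM of it. Cemip, the gene with the highest ratio, was seen in 13.2% of knockout cells thinned to 500 UMIs, and in 5 of 136 knockout B cells before thinning. Sfrp2, a secreted modulator of Wnt signalling, had 313 UMIs in 57 knockout cells and 0 in wild-type cells (at least 22.4-fold), and in fibroblasts stood at 119 and 7.30 CPM. Osr1, a zinc-finger transcription factor of mesenchyme (chr12:9570116-9581500, plus strand), had 235 UMIs in 64 knockout cells and 0 in wild-type cells (at least 16.8-fold), whereas fibroblasts had 19.4 and 19.5 CPM in the knockout and wild-type libraries. Rspo2, a Wnt enhancer related to Rspo1, had 80 UMIs in 20 knockout cells and 0 in wild-type cells (at least 5.72-fold).

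The cells that held these genes overlapped in part. Of the 55 cells with Cemip, 27 also had Saa3 (49.1% of the Cemip cells and 44.3% of the 61 Saa3 cells) and 28 had Sfrp2, and 39 had Msln. Of the 64 cells with Osr1, 30 had Cemip and 35 Sfrp2. Mt2, a metallothionein that binds zinc and copper, was broader: 1492 UMIs in 146 knockout cells and 12 UMIs in 5 wild-type cells, or 1813 and 67.9 CPM, with a log2 ratio of 4.68 (3.93 to 5.69) and 218 and 18.6 CPM in knockout and wild-type fibroblasts. Prg4, the joint and serosal lubricant lubricin, was 819 CPM in 73 knockout cells and 28.3 CPM in 5 wild-type cells, a log2 ratio of 4.72 (3.62 to 6.48) that was 1.40 (-0.52 to 4.08; 8 and 3 UMIs) in the cells with at most 2 fibroblast UMIs. One knockout cell held 30.9% of its UMIs, and 531 and 78.6 CPM were found in knockout and wild-type fibroblasts. Thbs1, thrombospondin-1, had 476 UMIs in 52 knockout cells and 0 in wild-type cells, with 52.9% of them in 1 cell. A UMI of Thbs1 was also found in 26.8% of knockout and 6.01% of wild-type fibroblasts. Of B cells, 10 of 136 in the knockout library and 0 of 29 in the wild-type library had one. Irf7 and Saa3, given above, were also among the 12, as were the latent TGF-beta binding protein Ltbp2 and the annexin Anxa8, at least 14.9-fold and 4.51-fold higher.

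**Figure D4:**
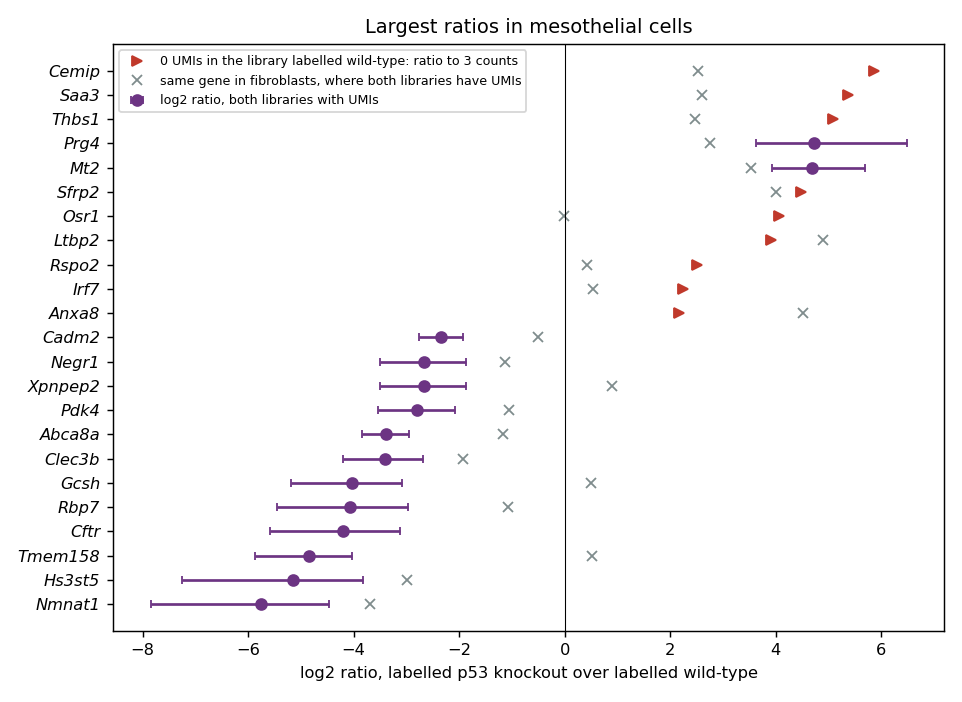
Log2 ratio of knockout-labelled over wild-type-labelled cells for 11 of the 12 highest and the 12 lowest genes in mesothelial cells, with 95% counting intervals (circles). Triangles give the ratio to 3 counts where wild-type cells had 0 UMIs and are not interval limits. Crosses give the same gene in fibroblasts. Osr1 stands at 235 and 0 UMIs in mesothelial cells with its fibroblast cross near 0, and Nmnat1, at 4 and 52 UMIs, is the lowest.

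The 12 lowest genes were each seen in at least 15 wild-type cells. Nmnat1, which makes NAD in the nucleus (chr4:149467572-149485202, minus strand), had 4 UMIs in knockout cells and 52 UMIs in 30 wild-type cells, or 4.86 and 294 CPM, with 6.75 and 88.4 CPM in knockout and wild-type fibroblasts. Cftr, the chloride channel (chr6:18170687-18322768, plus strand), had 8 UMIs in 6 knockout cells and 33 UMIs in 17 wild-type cells, a log2 ratio of -4.20 (-5.59 to -3.12), and at most 1.17 CPM in fibroblasts. Tmem158, a transmembrane protein induced by Ras, was 15.8 CPM in 6 knockout cells and 470 CPM in 28 wild-type cells (log2 ratio -4.85, -5.86 to -4.04; 2 and 12 UMIs, -2.20, in the cells with at most 2 fibroblast UMIs), and 14.1 and 9.73 CPM in knockout and wild-type fibroblasts. The synaptic adhesion molecule Cadm2 was 118 and 600.2 CPM, and Xpnpep2, an aminopeptidase, 29.2 and 187 CPM in knockout and wild-type cells. Clec3b (tetranectin) and the transporter Abca8a, at 27.9 and 75.3 CPM in knockout cells and 300.1 and 793 CPM in wild-type cells, were also lower in the fibroblasts of the knockout library, as was the adhesion molecule Negr1 at 231 against 507 CPM. Hs3st5, Rbp7, Gcsh and Pdk4 made up the rest, with 4 to 28 UMIs in knockout cells and 30 to 42 in wild-type cells.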

How the data were processed

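The values are counts of UMIs per gene and barcode that the authors deposited as 1 matrix for each of 2 libraries, 32589 gene IDs by 10118 (p53 knockout) and 16060 (wild-type) barcodes, and every deposited barcode had at least 500 UMIs. Per the submitters' processing notes Cell Ranger and Seurat were used with mm10, and their versions are not given in the sources used here. Per the labels' protocols the libraries were made with a 10x Genomics Chromium 3′ kit, whereas the deposited barcodes are written as 3 joined blocks. Filters used before deposit are otherwise not given in the sources used here.

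Counts of the mesothelial cells of a library were summed and divided by their nuclear-encoded UMIs (CPM). Log2 ratios of knockout-labelled over wild-type-labelled cells had 0.5 UMI added to each sum. Intervals at 95% are exact Poisson for levels, exact conditional binomial for ratios and exact Clopper-Pearson for shares. UMIs of 1 cell are not independent samples of a heart, so the intervals cover counting error only. With 1 library per group no p-value was computed. Genes with at least 20 UMIs over both libraries in the mesothelial cells were counted, 8481 in all. Fibroblasts, for comparison, had at least 3 UMIs over Pdgfra, Col1a1, Col1a2, Dcn, Tcf21 and Lamc3 from 2 or more genes, 0 UMIs of the rule genes and the same other limits (1555 and 1963 cells). B cells, to gauge free RNA, had at least 2 UMIs over a short list of B cell markers, among them Cd79a, Cd79b and Ms4a1, from 2 or more genes. Doublets were not removed beyond the rule. Scrublet, in scanpy 1.11.5, called 0 barcodes in the knockout library and 1946 in the wild-type library, so its calls were not used and the 8% highest scores were left out as an alternative.

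Genes were named by this rule: the 6 rule genes and Trp53; of each list the 4 with most UMIs and the highest and lowest ratio; the 15 genes highest over fibroblasts and other barcodes; and the 12 highest and 12 lowest ratios among genes with at least 30 UMIs in 1 library whose CPM in the higher library was at least 0.5 times that over all its barcodes. A few genes that the rule names are not reported here. Other genes were named for their role after their values were seen. The cells, the 17 pathway lists and the 14 cell type lists were chosen with earlier results of these data known. Gene positions are from GENCODE vM21 (mm10), matched for 32522 IDs. Promoters are from RefSeq (GRCm38.p6). The computations used Python 3.11.15, numpy 2.4.6, scipy 1.17.1 and pandas 2.3.3, and the ratio and interval steps were tested on simulated data.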

Additional observations from a re-analysis of the deposited data

How the results depend on the processing

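No paired analysis was possible because each group has 1 library, and for the same reason no replicate could be left out. Of 91 named genes at least 2-fold apart, 81 kept their direction under the 20 alternatives that recompute single genes. Of the 22 alternatives in all, 4 (at least 10 rule UMIs per 10000, the endothelial limit scaled with depth, equal weight for each cell, and without the 5 deepest cells) were chosen after seeing the data. The share of cells was higher in the knockout-labelled library under every alternative that changes which cells are taken. There it was 2.32%, and 1.98% with at least 3 rule UMIs, 1.502% after thinning, 1.48% with 0 UMIs of Ptprc, Pecam1 and Cdh5, 0.613% with at most 2 fibroblast UMIs, 1.75% among barcodes of 500 to 2000 UMIs, and 1.95% and 1.97% without Msln or Upk1b in the rule. In the wild-type-labelled library it was 0.778%, and 0.573% after thinning, 0.635% with a cardiomyocyte limit of 1%, 0.430% with at most 2 fibroblast UMIs and 0.623% without Muc16. The log2 ratio of the shares, 1.58, was 1.15 with 0 UMIs of Ptprc, Pecam1 and Cdh5 and 0.51 with at most 2 fibroblast UMIs. Counts of genes at least 2-fold higher and lower, 1134 and 998, were 201 and 217 with at most 2 fibroblast UMIs, 341 and 344 at 500 to 2000 UMIs, 1778 and 538 under median-of-ratios scaling, 566 and 381 with a minimum of 50 UMIs, and 2111 and 3741 with a minimum of 1 UMI; the number of genes that pass the minimum differs in all of these except the scaling, which shifts every ratio. With at most 2 fibroblast UMIs the median of mesothelial genes was -0.64 and that of complement genes 0.82; the cause was not tested.

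The other 10 changed sign somewhere, on few UMIs, given here as knockout and wild-type UMIs; with 0 or 1 UMI the value is set by the 0.5 UMI added and the depths. Cidec, 1.48 with the rule as given, was -1.03 with at least 3 rule UMIs, -1.07 without Upk1b and -0.90 with at least 10 rule UMIs per 10000 (3 and 1 UMIs each), -0.11 after thinning (2 and 0) and -1.64 without Muc16 (2 and 1). Cxcl12 was -0.67 after thinning (8 and 2). With at most 2 fibroblast UMIs Tat was 0.12 (0 and 0, so no ratio was measured), Tnnc1 1.17 (15 and 7), F13a1 0.0405 (17 and 18), Twist1 -1.46 (0 and 1), Slurp1 -1.10 (1 and 3), Apol11b -1.46 (0 and 1) and Csf1r 0.94 (11 and 6). At 500 to 2000 UMIs Dpt was 0.13 (4 and 3), Slurp1 -0.23 (3 and 3), Apol11b -1.82 (0 and 1) and Csf1r 0.16 (12 and 9). The wild-type cells, with 176610 nuclear-encoded UMIs, limit these comparisons: 3 counts there are 16.99 CPM, against 3.64 CPM in knockout cells. A gene at 0 in wild-type cells may therefore still be expressed at levels near or below 16.99 CPM.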

Other observations

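Genes of the YAP and TEAD pathway, which responds to stretch and stiffness, had a median log2 ratio of 0.64 over 14 genes counted in mesothelial cells, with 3 at least 2-fold higher in the library labelled p53 knockout and none 2-fold lower, beside 13.4% and 11.8% of all genes. The median of this list was 0.42 in fibroblasts and 0.78 over all other barcodes. Ccn2, a matricellular target of that pathway, had 398 UMIs in 91 knockout cells and 6 UMIs in 2 wild-type cells, with 30.2% of the knockout UMIs in 1 cell, and stood at 2279 and 211 CPM in knockout and wild-type fibroblasts. Amotl2, an angiomotin that binds YAP, was 293 CPM in 73 knockout cells and 176 CPM in 23 wild-type cells. Over the same cells retinoic acid genes had a median of 0.25 over 10 genes, cytoskeleton genes 0.56 over 16, glycocalyx genes 0.68 over 10, and lipid and prostaglandin genes -0.23 over 16, the last of which was 0.08 under median-of-ratios scaling. The medians of these lists, in the same order, were 0.15, 0.61, 0.66 and -0.35 in fibroblasts. Over all other barcodes they were 0.35, 0.98, 0.79 and 0.09. Glycolysis and hypoxia genes had a median of 0.60 over 20 genes, 6 of them at least 2-fold higher and 1 lower, beside 13.4% and 11.8% of all genes, and 0.87 in fibroblasts. Adm, the vasodilator peptide adrenomedullin, had 78 UMIs in 20 knockout cells and 1 UMI in wild-type cells (log2 ratio 3.49, 1.54 to 9.39).

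Of 10 genes of the glycocalyx and lubrication list, 8 were higher in the knockout-labelled library, 4 of them at least 2-fold, and none was 2-fold lower, beside 13.4% and 11.8% of all genes. Has1, a hyaluronan synthase, was 160 CPM in 41 knockout cells and 45.3 CPM in 5 wild-type cells (log2 ratio 1.74, 0.80 to 3.07), and Sdc4, a heparan sulfate proteoglycan, 350 and 108 CPM. Aqp1, a water channel on the same list that vascular endothelium also expresses, was lower in the library labelled p53 knockout, at 542 CPM in 95 cells, against 1070 CPM in 63 cells of the library labelled wild-type. From the cytoskeleton list, Espn, an actin bundler of microvilli, was 146 CPM in knockout and 362 CPM in wild-type cells, with 7.92 and 6.89 CPM in knockout and wild-type fibroblasts. Immediate early genes, which dissociation of tissue can switch on, had a median log2 ratio of 0.19 over 17 genes, with Fos at 54.7 and 90.6 CPM and Cebpd, a C/EBP factor of the acute phase, at 215 and 28.3 CPM in knockout and wild-type mesothelial cells and 322 and 220 CPM in knockout and wild-type fibroblasts.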
